A study of Mus musculus with 13 samples.

Results

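The endocannabinoid receptors and metabolic enzymes described here are 10 genes chosen by symbol, Cnr1, Cnr2, Gpr55, Napepld, Faah, Dagla, Daglb, Mgll, Abhd6 and Abhd12, all of which were among the 20270 protein-coding genes in the tables. RNA was sequenced from whole lung of wild-type control mice (4 libraries) and wild-type mice given bleomycin (WT bleomycin, 5 libraries). The other group was Cnr1-/- mice given bleomycin (CB1R KO bleomycin, 4 libraries). Each library was taken as 1 mouse. The titles of WT bleomycin libraries 4 and 4-B2 share the number 4, and the labels do not say whether they came from different mice. Bleomycin, a chemotherapeutic that injures the lung and leads to fibrosis, was given once by oropharyngeal aspiration at 1 U/kg, and those lungs were taken at 14 days. The purchased wild-type mice were C57BL/6J males, 13 weeks old. The controls, wild type by their titles, received the saline vehicle according to the study's methods. The Cnr1-/- mice had a C57Bl/6J background, and their age and sex are not given in the sources used here. No CB1R KO lung without bleomycin was analysed, so the deletion could be compared only within the injured lung. The lower right lobe was used, and its RNA was selected by poly(A) before sequencing.

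Endocannabinoids are lipid messengers that are made on demand from membrane phospholipids. Anandamide, one of the N-acylethanolamines, is released by the phospholipase D encoded by Napepld and hydrolysed by fatty acid amide hydrolase (Faah), while 2-arachidonoylglycerol (2-AG) is made by the diacylglycerol lipases Dagla and Daglb and hydrolysed by Mgll, Abhd6 and Abhd12. Both lipids act on the G protein-coupled receptors CB1R (Cnr1), best known from neurons, and CB2R (Cnr2), best known from immune cells, and Gpr55 encodes a receptor for lysophosphatidylinositol that also responds to some cannabinoids.

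Depth ranged from 14615904 to 16662580 estimated counts in 12 of the 13 libraries and was 53463884 in CB1R KO replicate 11. Values per library are given as CPM (counts relative to the TMM-scaled library total), which compare libraries for the same gene, and levels between genes are given as TPM, the share of transcripts after scaling for their length. Changes were tested with the edgeR quasi-likelihood test over the 15315 genes that passed a filter on low counts, and a gene was called at a Benjamini-Hochberg adjusted p under 0.05. All 10 genes passed the filter. Estimated counts ranged from 27 to 188 per library for Cnr1 and from 38 to 302 for Gpr55, the 2 genes with the fewest counts, and from 1603 to 5814 for Mgll. The lung check genes, at a summed 17970 to 36067 CPM, were high in every library.

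The upstream sequences of 5 genes that are called further on in the comparison of WT bleomycin with control lungs are shown first, so that their base composition can be seen beside the values. The RefSeq promoter table for GRCm38.p6 held windows for 8 of the 10 genes, and none for Dagla and Abhd12. The 250 bases before the annotated start are given 5′ to 3′ on the strand of the gene. They lie at chr4:33924394-33924643 on the plus strand for Cnr1, chr1:85961056-85961305 on the minus strand for Gpr55, chr5:143464243-143464492 on the plus strand for Daglb, chr4:135894939-135895188 on the plus strand for Cnr2 and chr4:116017925-116018174 on the minus strand for Faah. For Cnr1, which has 3 windows, the one in which a GENCODE M21 transcript starts was taken, and for Cnr2, which has 2, the first along the chromosome. No GENCODE M21 transcript starts in the windows shown for Gpr55, Daglb and Cnr2. Capitals mark every match, on either strand, to the TATA box TATAAA, the GC box GGGCGG, the CCAAT box CCAAT, the AP-1 site TGANTCA, the cyclic AMP response element TGACGTCA, the E-box CACGTG and the nuclear receptor half-site AGGTCA.
Cnr1: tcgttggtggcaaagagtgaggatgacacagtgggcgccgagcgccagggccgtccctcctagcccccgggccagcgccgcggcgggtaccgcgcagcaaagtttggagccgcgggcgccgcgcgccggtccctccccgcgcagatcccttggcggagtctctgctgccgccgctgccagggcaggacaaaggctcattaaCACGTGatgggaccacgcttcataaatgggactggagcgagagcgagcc
Gpr55: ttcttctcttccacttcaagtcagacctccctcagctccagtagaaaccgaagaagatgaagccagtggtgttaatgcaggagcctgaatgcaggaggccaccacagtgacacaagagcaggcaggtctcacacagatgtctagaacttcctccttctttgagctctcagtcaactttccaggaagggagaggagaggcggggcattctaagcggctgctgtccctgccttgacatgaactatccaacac
Daglb: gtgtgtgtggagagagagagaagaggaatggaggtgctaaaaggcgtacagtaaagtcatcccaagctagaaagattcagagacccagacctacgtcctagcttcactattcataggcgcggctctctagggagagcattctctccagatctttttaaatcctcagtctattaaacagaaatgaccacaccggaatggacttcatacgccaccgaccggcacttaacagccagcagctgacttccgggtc
Cnr2: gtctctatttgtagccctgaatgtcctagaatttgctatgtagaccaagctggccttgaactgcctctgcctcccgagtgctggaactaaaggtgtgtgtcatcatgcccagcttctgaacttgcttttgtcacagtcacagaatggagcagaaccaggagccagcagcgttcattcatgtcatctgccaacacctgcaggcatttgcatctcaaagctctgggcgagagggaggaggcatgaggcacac
Faah: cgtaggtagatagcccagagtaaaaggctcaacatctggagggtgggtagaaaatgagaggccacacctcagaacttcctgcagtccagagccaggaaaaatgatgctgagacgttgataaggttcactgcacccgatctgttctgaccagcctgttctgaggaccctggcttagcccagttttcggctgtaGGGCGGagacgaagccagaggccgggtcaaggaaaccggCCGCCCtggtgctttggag
Cnr1 had the most GC-rich of these windows, with 68.8% G and C and 28 CpG dinucleotides, against medians of 52.4% and 6 over the 32851 windows of the table. Its only match was an E-box beginning 49 bases before the start, a motif held by 6.02% of all windows. The window of Faah had 55.6% G and C, 9 CpG dinucleotides and 2 GC boxes, at 58 and 19 bases before the start, and 32.7% of all windows held at least 1 GC box. Gpr55 (52% G and C, 3 CpG dinucleotides), Cnr2 (51.6%, 3) and Daglb (49.2%, 9) held no match to any of these motifs in the windows shown. The other motifs were held by 12.4% (TATA box), 33.8% (CCAAT box), 6.75% (AP-1 site), 1.55% (cyclic AMP response element) and 14% (nuclear receptor half-site) of all windows. No match overlapped another in the windows shown. Of the windows not shown, that of Cnr2 held a CCAAT box 46 bases before its start. A Cnr1 window not shown, with 79.2% G and C, held 5 GC boxes and 1 nuclear receptor half-site. A match describes the letters of the window, and factor binding was not measured.

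Levels per transcript length separated the 10 genes into 3 tiers that were alike in the 3 groups. In control lungs, Mgll had 55.7 ± 9.27 TPM (mean ± SD, n = 4) and Abhd12 had 55.5 ± 6.0 TPM, both at a percentile of 88.6 among the 20270 genes by TPM. The middle tier ran from Faah at 9.02 ± 0.742 TPM, through Cnr2 at 8.12 ± 2.42, Daglb at 7.43 ± 0.345, Abhd6 at 6.73 ± 0.0686 and Dagla at 5.92 ± 0.954, down to Napepld at 4.79 ± 0.605. Gpr55 at 1.11 ± 0.150 TPM and Cnr1 at 0.669 ± 0.288 TPM were lowest. The ranges over the control libraries overlapped for Mgll and Abhd12, for Faah and Cnr2, for Cnr2 and Daglb, for Abhd6 and Dagla, for Dagla and Napepld, and for Gpr55 and Cnr1, so these neighbours in the order were not separated.

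In WT bleomycin lungs the order changed at the top and in the middle. Abhd12 (80.8 ± 1.59 TPM, n = 5) stood above Mgll (49.3 ± 5.02 TPM) with no overlap between their ranges, and Daglb (11.5 ± 1.96 TPM) stood above the rest of the middle tier, with Abhd6 next at 6.10 ± 1.01 TPM. Abhd6, Faah, Napepld, Dagla and Cnr2 followed each other with overlapping ranges, from 6.10 to 5.19 TPM. Cnr1 was still the lowest, at 1.48 ± 0.377 TPM, below Gpr55 at 1.99 ± 0.231 TPM with overlapping ranges. In CB1R KO bleomycin lungs (n = 4) the first 3 were again Abhd12 (82.0 ± 4.05 TPM), Mgll (50.4 ± 6.30 TPM) and Daglb (12.1 ± 1.16 TPM), and Cnr1 was last at 1.07 ± 0.369 TPM, here without overlap with Gpr55 at 2.03 ± 0.460 TPM.

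**Figure D1:**
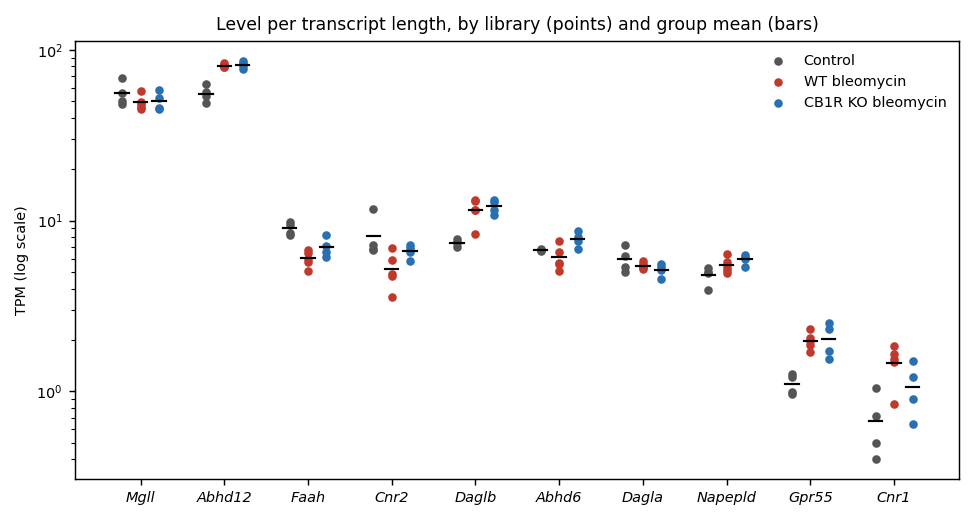
TPM on a log scale (y axis) for the 10 genes (x axis, ordered by the control mean), with a point for each library and a bar at each group mean. Mgll and Abhd12 lie near or above 50 TPM in every group, 6 genes lie between, and Gpr55 and Cnr1 lie lowest.

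Cnr1, the gene targeted in the CB1R KO mice, was counted in every library. It had 4.10, 1.62, 2.88 and 2.06 CPM in control libraries 3, 21, 24 and 26. WT bleomycin libraries 4, 2, 5, 4-B2 and 7 had 6.97, 5.68, 6.54, 3.46 and 6.17 CPM. CB1R KO libraries 8, 9, 10 and 11 had 5.63, 2.47, 4.61 and 3.47 CPM, on the same scale. Of the WT bleomycin libraries, 4 lay above every control library and 4-B2 lay below control replicate 3, while the CB1R KO libraries spread over both other groups. Cnr1 rose 2.16-fold in WT bleomycin over control lungs (log2 fold change 1.11, SE 0.30, 95% interval 0.48 to 1.75, adjusted p = 0.00655). Between CB1R KO and WT bleomycin lungs the ratio was 0.694 (95% interval 0.456 to 1.06, adjusted p = 0.367). Between CB1R KO bleomycin and control lungs it was 1.5-fold (0.946 to 2.38, adjusted p = 0.158), and without control replicate 3 that comparison passed the threshold (log2 fold change 0.88, adjusted p = 0.0466).

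Which part of Cnr1 the counts came from was approached through transcript length. The count of a gene divided by its TPM scales with the mean length of the transcripts to which reads were assigned, and over 3285 genes with a single protein-coding transcript in GENCODE M21 a straight line turned this ratio into the annotated length to within 10% for 99.5% of them. By this scale the Cnr1 reads were assigned to transcripts with a mean length of 5761 to 5807 bases in the control libraries, 5798 to 5807 in the WT bleomycin libraries and 5782 to 5807 in the CB1R KO libraries. GENCODE M21 lists 2 protein-coding Cnr1 transcripts, of 5761 and 5807 bases, and each has a coding sequence of 1419 bases, which is 24.6% and 24.4% of its length. The ratio of counts to TPM differed by -0.452% between CB1R KO and WT bleomycin lungs (95% interval -1.21% to 0.309%, limma, adjusted p = 0.999), but the annotated transcripts differ by only 46 bases, which leaves this ratio little room to move. Most of either transcript is therefore outside the coding sequence, the sources used here do not say which stretch was deleted, and the Cnr1 counts do not check the genotype. CB1R KO below is the group as labelled.

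For Gpr55, Faah, Dagla, Daglb and Abhd12, which have a single protein-coding transcript in GENCODE M21, the ratio of counts to TPM is set by the annotation and says nothing of transcript use. Among the other 5 genes, which have 2 to 6 such transcripts, 0 of 5 passed by limma in WT bleomycin against control (background 0.482% of 13901 genes), 0 in CB1R KO against WT bleomycin (background 0%) and 0 in CB1R KO bleomycin against control (background 0.101%), and 0 had an unadjusted p under 0.05 in any of them. The estimates lay between -0.968% (Mgll, CB1R KO bleomycin against control) and 0.759% (Cnr1, WT bleomycin against control). Mgll, with 6 such transcripts, ranged from 3604 to 3725 bases over the libraries.

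Across the 10 genes, 6 were called in WT bleomycin against control lungs, where 48.9% of all genes tested were called. Of these, 4 rose (Cnr1, Gpr55, Daglb and Abhd12, against a background of 25%) and 2 fell (Cnr2 and Faah, against 23.9%). In 5 of the 10 genes the CPM of the groups did not overlap, against 40.3% of all genes. The median absolute log2 fold change was 0.55 over the 10 genes and 0.29 over all genes, and the median signed change was 0.00 for the 10 and -0.01 for all. The share called among the 10 was near the background, and the same 6 genes passed the threshold under each of the 25 alternative settings.

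**Figure D2:**
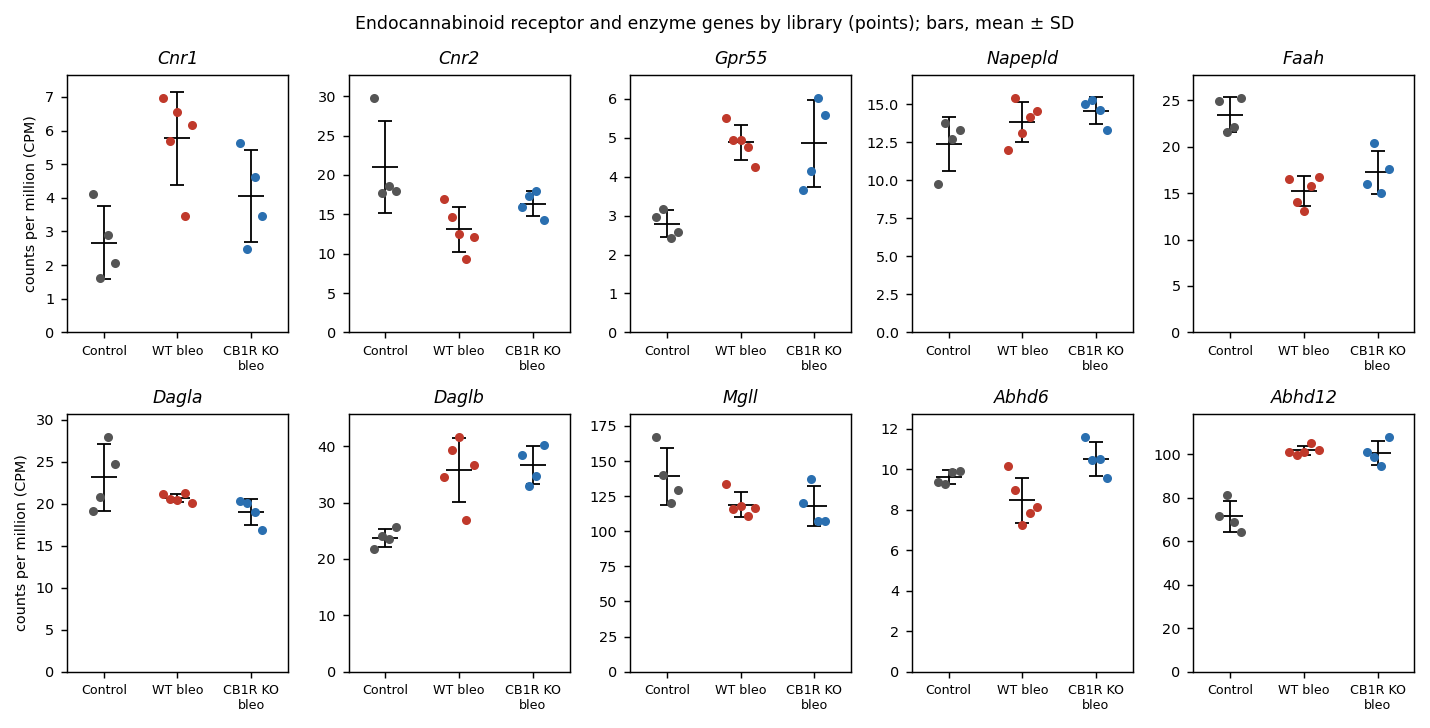
CPM (y axis, from 0) in each library, in a panel per gene, with a point per library in control (grey, n = 4), WT bleomycin (red, n = 5) and CB1R KO bleomycin (blue, n = 4), and bars at the mean ± SD. Gpr55, Daglb and Abhd12 rise and Faah and Cnr2 fall in WT bleomycin lungs without overlap with control, and Cnr1 rises with 1 library overlapping.

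Among the receptors, the group mean of Cnr2 moved opposite to that of Cnr1 in WT bleomycin against control lungs. Pearson's r between their log2 CPM was -0.247 over the 13 libraries and 0.652 after the group means were subtracted. Control libraries 3, 21, 24 and 26 had 29.8, 17.7, 18.6 and 18.0 CPM of Cnr2, so that replicate 3 stood far above the other 3. WT bleomycin libraries 4, 2, 5, 4-B2 and 7 had 16.9, 14.7, 12.5, 9.34 and 12.1 CPM, all below every control library. CB1R KO libraries 8, 9, 10 and 11 had 15.9, 17.3, 17.9 and 14.3 CPM and overlapped both other groups. Cnr2 fell to 0.623 of the control level in WT bleomycin lungs (log2 fold change -0.68, SE 0.18, adjusted p = 0.00544), and the call held without control replicate 3, with the smallest change over the libraries left out in turn being -0.46. In CB1R KO against WT bleomycin lungs Cnr2 was at 1.24-fold (95% interval 0.955 to 1.62, adjusted p = 0.392). Against control, CB1R KO bleomycin lungs had 0.775 of the Cnr2 level (0.589 to 1.02, log2 fold change -0.37, adjusted p = 0.135). With the style of the library titles as a term this comparison passed (-0.46, adjusted p = 0.0482), and without control replicate 3 the log2 fold change was -0.15 (adjusted p = 0.501).

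The B cell markers Ms4a1, Cd79a, Cd79b and Pax5 moved with Cnr2, which is known to be high in B cells. All 4 were called lower in WT bleomycin than in control lungs, where 23.9% of all genes tested were lower and 25% higher. None of the 4 was at 0 in every library. Their summed level was 385 CPM in control replicate 3 and 157 to 205 CPM in the other control libraries. It was 59.1 to 164 CPM in WT bleomycin and 112 to 145 CPM in CB1R KO libraries. Control replicate 3 was the highest library for both Cnr2 and these markers. It was also the highest for the 5 neutrophil markers, which summed to 127 to 588 CPM in control, 75.7 to 135 in WT bleomycin and 92.4 to 185 in CB1R KO libraries, with 4 of 5 lower in WT bleomycin than in control. The same held for the 5 markers of T and NK cells (34.1 to 54.6, 21.2 to 32.3 and 31.2 to 35.6 CPM, with 2 of 5 lower). The 3 plasma cell markers went the other way, from 200.5 to 231 CPM in control to 264 to 557 in WT bleomycin and 269 to 436 in CB1R KO libraries, with 2 of 3 higher in WT bleomycin. In bulk tissue, fewer cells of a type and less RNA per cell cannot be told apart, and the part of these cells in the Cnr2 result was not tested. For Cnr1, the neuronal markers Elavl4, Snap25, Tubb3 and Rbfox3 summed to 4.01 to 8.12 CPM in control, 8.28 to 9.76 CPM in WT bleomycin and 4.43 to 6.96 CPM in CB1R KO libraries, with 2 of the 4 tested, of which 1 was higher and 1 lower in WT bleomycin against control and 1 was lower in CB1R KO against WT bleomycin. In CB1R KO against WT bleomycin lungs 0.62% of all genes were called lower. The part of these neuronal markers in the Cnr1 result was not tested either.

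**Figure D3:**
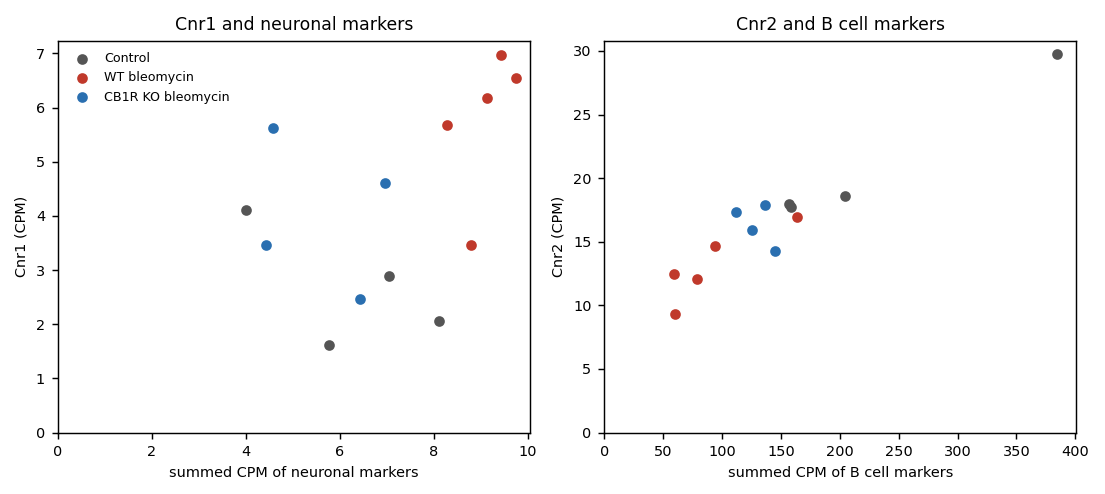
CPM of Cnr1 against the summed CPM of 4 neuronal markers (left) and of Cnr2 against that of 4 B cell markers (right), both axes from 0, with a point per library coloured by group. Control replicate 3 lies alone at the top right of the Cnr2 panel, at 29.8 CPM of Cnr2 and 385 CPM of markers.

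Gpr55 rose in both bleomycin groups. Control libraries had 2.97, 3.18, 2.43 and 2.58 CPM. WT bleomycin libraries had 5.51, 4.94, 4.94, 4.78 and 4.26 CPM, and CB1R KO libraries had 3.66, 4.16, 6.03 and 5.58 CPM. Every bleomycin library lay above every control library, and the CB1R KO libraries reached both below and above the WT range. Against control, Gpr55 was 1.75-fold higher in WT bleomycin (log2 fold change 0.80, SE 0.18, adjusted p = 0.00165) and also 1.75-fold higher in CB1R KO bleomycin lungs (log2 fold change 0.80, SE 0.18, adjusted p = 0.00346). These comparisons share the control libraries. The ratio of CB1R KO to WT bleomycin lungs was 1.0 (95% interval 0.788 to 1.27).

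On the anandamide arm, Faah fell in both bleomycin groups. Control libraries had 24.9, 21.6, 22.1 and 25.3 CPM of Faah, the enzyme that hydrolyses anandamide. WT bleomycin libraries had 16.6, 14.1, 13, 15.7 and 16.7 CPM, and CB1R KO libraries had 16, 20.4, 15.1 and 17.6 CPM. No bleomycin library reached the lowest control library. Faah was at 0.649 of the control level in WT bleomycin lungs (log2 fold change -0.62, SE 0.11, adjusted p = 0.000221) and at 0.735 in CB1R KO bleomycin lungs (log2 fold change -0.44, SE 0.11, adjusted p = 0.00644). In CB1R KO against WT bleomycin lungs it was at 1.13-fold (95% interval 0.969 to 1.33, adjusted p = 0.407), with replicates 9 and 11 above all WT libraries.

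Napepld, which encodes the N-acylethanolamine-releasing phospholipase, ranged from 9.76 to 13.8 CPM in control, 12 to 15.4 in WT bleomycin and 13.3 to 15.3 in CB1R KO libraries. It was at 1.12-fold in WT bleomycin against control (95% interval 0.949 to 1.32, adjusted p = 0.246), and at 1.17-fold in CB1R KO bleomycin against control (0.987 to 1.40, adjusted p = 0.137). The TPM ratio of Napepld to Faah was 0.397 to 0.638 in control, 0.729 to 1.11 in WT bleomycin and 0.751 to 0.979 in CB1R KO libraries, so that both bleomycin groups lay above control without overlap. It is a description of transcript levels, and lipids were not measured in these libraries.

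On the 2-AG arm, the diacylglycerol lipases parted. Daglb had 21.7, 24.0, 23.6 and 25.7 CPM in control libraries. It had 34.5, 39.4, 41.6, 26.9 and 36.6 CPM in WT bleomycin libraries and 38.5, 32.9, 34.8 and 40.3 CPM in CB1R KO libraries. Every bleomycin library lay above every control library, with WT 4-B2 closest to them. Against control, Daglb was 1.51-fold higher in WT bleomycin (log2 fold change 0.59, SE 0.11, adjusted p = 0.000518) and 1.55-fold higher in CB1R KO bleomycin lungs (log2 fold change 0.63, SE 0.12, adjusted p = 0.000879). The ratio of CB1R KO to WT was 1.02 (95% interval 0.872 to 1.2).

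Dagla, the lipase known for 2-AG synthesis in the brain, had 19.1, 20.8, 27.9 and 24.7 CPM in control libraries. WT bleomycin libraries lay between 20 and 21.2 CPM, inside the control range, and CB1R KO libraries between 16.9 and 20.3 CPM. Dagla was at 0.894 of the control level in WT bleomycin lungs (95% interval 0.768 to 1.04, adjusted p = 0.209). In CB1R KO bleomycin lungs it was at 0.82 of control (log2 fold change -0.29, SE 0.11, adjusted p = 0.0523), just short of the threshold. It passed under 4 of 25 alternative settings. Of these, 2 were upper-quartile normalization (-0.30, adjusted p = 0.0382) and DESeq2 on all libraries (-0.29, adjusted p = 0.0465). It also passed without control replicate 3 (-0.37, adjusted p = 0.0145) and without control replicate 21 (-0.33, adjusted p = 0.0433). The TPM ratio of Daglb to Dagla, chosen after the values were seen, was 1.03 to 1.41 in control, 1.55 to 2.48 in WT bleomycin and 2.01 to 2.91 in CB1R KO libraries.

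Of the 3 hydrolases that break down 2-AG, Abhd12 rose. Abhd12, which encodes an enzyme also known as the main lysophosphatidylserine lipase of the brain, had 71.5, 81.1, 68.8 and 64.4 CPM in control libraries. It had 101, 99.8, 101, 105.1 and 102 CPM in WT bleomycin libraries and 101, 98.5, 94.6 and 108 CPM in CB1R KO libraries. The bleomycin groups lay close together and apart from control. The rise was 1.42-fold in WT bleomycin (log2 fold change 0.51, SE 0.07, adjusted p = 2.04e-05) and 1.41-fold in CB1R KO bleomycin lungs (log2 fold change 0.49, SE 0.07, adjusted p = 9.13e-05). The ratio of CB1R KO to WT was 0.988 (95% interval 0.899 to 1.09), the narrowest interval among the 10 genes.

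Mgll, the principal 2-AG hydrolase of most tissues, had 167, 140, 120 and 129 CPM in control libraries. WT bleomycin libraries had 134, 116, 118, 111 and 116 CPM, of which 4 lay below every control library, and CB1R KO libraries had 120, 137, 107 and 107 CPM. Mgll was at 0.856 of control in WT bleomycin lungs (95% interval 0.741 to 0.988, adjusted p = 0.0688) and at 0.847 in CB1R KO bleomycin lungs (0.727 to 0.986, adjusted p = 0.0823), and neither passed the threshold. Without control replicate 24 both did (adjusted p = 0.0315 and 0.0432), as did the first without WT replicate 4 (adjusted p = 0.0407) and the second without CB1R KO replicate 9 (adjusted p = 0.0282). The first also passed by DESeq2 on the 2 groups (adjusted p = 0.0496).

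Abhd6, an intracellular-facing membrane hydrolase, was the gene of the 10 that came closest to a difference between the bleomycin groups. Control libraries had 9.39, 9.25, 9.86 and 9.92 CPM. WT bleomycin libraries had 10.1, 8.96, 7.25, 7.82 and 8.15 CPM and CB1R KO libraries 11.6, 10.434, 10.499 and 9.54 CPM. Of the CB1R KO libraries, 3 lay above every WT library, and WT replicate 4 lay above CB1R KO replicate 11. The ratio of CB1R KO to WT bleomycin was 1.24 (95% interval 1.05 to 1.46, unadjusted p = 0.0141, adjusted p = 0.176 by edgeR). Abhd6 was at 0.881 of control in WT bleomycin (0.747 to 1.04, adjusted p = 0.194) and at 1.09-fold in CB1R KO bleomycin lungs (0.919 to 1.30, adjusted p = 0.424).

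The TPM sum of Dagla and Daglb over that of Mgll, Abhd6 and Abhd12 was 0.0907 to 0.134 in control, 0.105 to 0.140 in WT bleomycin and 0.111 to 0.128 in CB1R KO libraries, with all 3 ranges overlapping. The TPM ratio of Abhd12 to Mgll, chosen after the values were seen, was 0.830 to 1.13 in control, 1.44 to 1.79 in WT bleomycin and 1.37 to 1.89 in CB1R KO libraries, so that the make-up of the hydrolases differed while the summed ratio overlapped. The TPM ratio of Cnr2 to Cnr1 was 10.0 to 16.9 in control and 2.93 to 4.19 in WT bleomycin libraries, which did not overlap, and 4.37 to 10.7 in CB1R KO libraries.

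In CB1R KO against WT bleomycin lungs, 0 of the 10 genes were called by edgeR, where 0.979% of all genes were called (0.359% higher and 0.62% lower). At an unadjusted p under 0.05 there was 1 of 10, Abhd6, against 17% of all genes, and DESeq2 and limma also called 0 of 10. No gene of the 10 had groups without overlap in CPM, against 5.6% of all genes. The median absolute log2 fold change was 0.10 over the 10 genes and 0.12 over all genes. Every 95% interval but those of Cnr1, Cnr2 and Abhd6 lay within ratios of 0.788 and 1.33.

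In CB1R KO bleomycin against control lungs, 4 of the 10 genes were called, against 35.4% of all genes. Of them, 3 were higher (Gpr55, Daglb and Abhd12, against a background of 19%) and 1 was lower (Faah, against 16.3%), and the same 4 had groups without overlap, against 33.5% of all genes. Cnr1 and Cnr2, called in WT bleomycin against control, were not called here, apart from Cnr1 without control replicate 3 and Cnr2 with the title style as a term. That does not show that the bleomycin groups differ in these genes, since neither passed in the direct comparison.

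**Figure D4:**
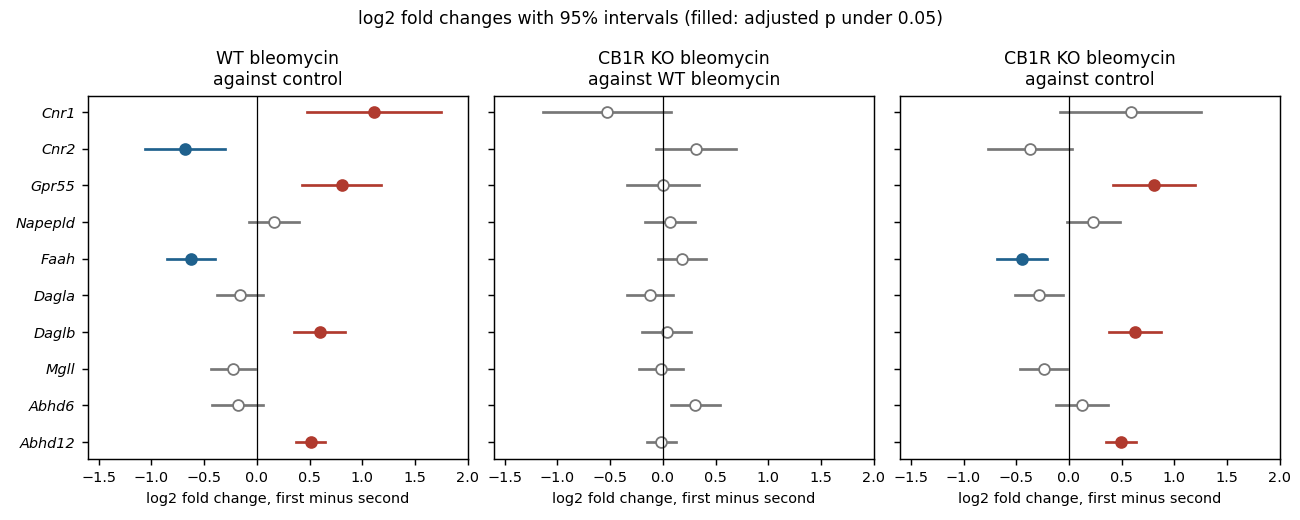
log2 fold change (x axis, first group minus second) with its 95% interval for the 10 genes (y axis) in the 3 comparisons, filled where the adjusted p was under 0.05 (red higher, blue lower). In the left panel 6 genes are filled, in the middle panel 0 and in the right panel 4.

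Genes around the receptors and enzymes were read from a list of 50, of which 43 passed the filter on low counts. Pla2g4e, Plaat1, Plaat5, Fabp7, Gpr119, Trpv1 and Trpa1 did not pass. In WT bleomycin against control lungs 25 of the 43 were called, 10 higher and 15 lower, or 58.1% against the background of 48.9%. Naaa, the lysosomal acid amidase that breaks down N-acylethanolamines, rose from 86.9 ± 6.50 to 141 ± 10.2 CPM (mean ± SD, 1.62-fold, adjusted p = 1.86e-06), in the opposite direction to Faah. Of 7 tested genes of N-acylethanolamine synthesis, 0 were higher and 2 lower. Of 6 phospholipases C, which supply diacylglycerol, 0 were higher and 4 lower. Over all genes tested 25% were higher and 23.9% lower, so that 2 of 7 lower lay near the background.

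Among 9 partners of CB1R and G protein subunits, 3 rose and 3 fell, where 25% of all genes tested rose and 23.9% fell. Sgip1, whose product binds CB1R and slows its internalisation, fell from 25.8 ± 1.83 to 12 ± 2.07 CPM (0.463 of control, adjusted p = 1.39e-05). Gprasp1, whose product sorts receptors to lysosomes, fell from 61.9 ± 3.97 to 33.9 ± 5.05 CPM (0.549, adjusted p = 6.44e-06). Arrb2, a beta-arrestin, rose 1.39-fold (adjusted p = 0.000649) and Gnai3, an inhibitory G protein subunit, rose 1.19-fold (adjusted p = 0.00208). Of 5 other lipases 3 fell, against the same 23.9%, among them Ces1d, a carboxylesterase, to 0.466 of control (adjusted p = 6.89e-06). Alox12, a lipoxygenase, fell to 0.346 of control (adjusted p = 1.81e-05), and Trpv2, a cation channel, rose 1.33-fold (adjusted p = 0.0013).

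In CB1R KO bleomycin against control lungs 20 of the 43 were called, 9 higher and 11 lower, or 46.5% against the background of 35.4%. Naaa was at 125 ± 5.77 CPM (1.44-fold, adjusted p = 7.24e-05), Sgip1 at 13.4 ± 2.54 CPM (0.518, adjusted p = 0.000182) and Gprasp1 at 42.8 ± 3.04 CPM (0.692, adjusted p = 0.00113). Ces1d was at 0.557 and Alox12 at 0.424 of control (adjusted p = 0.000242 and 0.000346). Trpv2 rose 1.33-fold, Gnai3 1.19-fold and Trpv4, a mechanosensitive cation channel, 1.41-fold (adjusted p = 0.00331, 0.00444 and 0.0057). In CB1R KO against WT bleomycin lungs 0 of the 43 were called by edgeR (0.979% of all genes were), with 10 at an unadjusted p under 0.05 (17% of all genes). DESeq2 on all libraries was run without the edgeR filter, and its calls equalled 4.21% of the 15315 genes tested by edgeR. It called 2 of the 43, the fatty acid binding protein gene Fabp3 (by edgeR, log2 fold change 0.75 and adjusted p = 0.0805) and Gprasp1 (0.33 and adjusted p = 0.108), which are named after their values were seen.

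**Figure D5:**
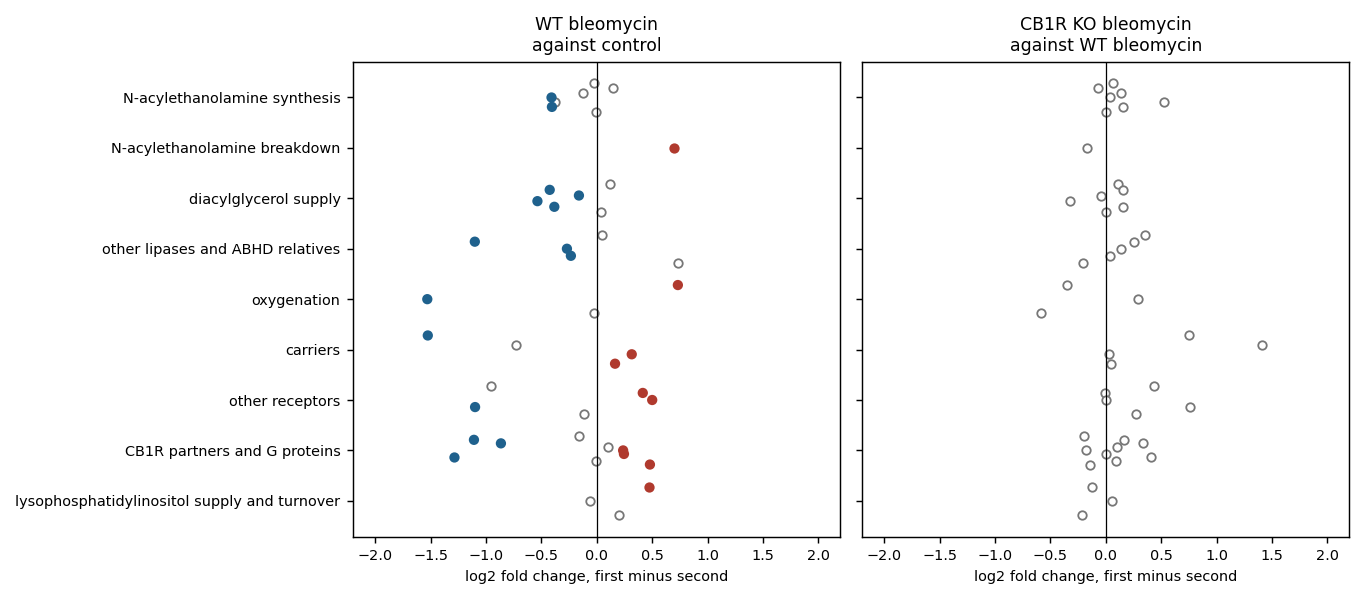
log2 fold change (x axis) of the 43 other pathway genes by functional group (y axis), filled where the adjusted p was under 0.05 (red higher, blue lower). In WT bleomycin against control 25 are filled, and in CB1R KO against WT bleomycin 0.

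Markers of other cells moved to differing extents between the same libraries. Of all genes tested, 25% were called higher and 23.9% lower in WT bleomycin against control lungs. In CB1R KO bleomycin against control 19% were higher, and in CB1R KO against WT bleomycin 0.359% were higher. The 5 markers of monocyte-derived and interstitial macrophages summed to 193 to 265 CPM in control, 837 to 891 in WT bleomycin and 550 to 853 in CB1R KO libraries, and all 5 were called higher in both bleomycin groups than in control. The 4 fibroblast markers summed to 745 to 886, 1988 to 3193 and 1315 to 2403 CPM, with 2 of 4 higher in both bleomycin groups. The 4 cardiac muscle markers summed to 523 to 1344, 83.9 to 341 and 341 to 619 CPM in the same order, and all 4 were lower in WT bleomycin than in control. Of 4 type II cell markers, which summed to 13724 to 16470, 7927 to 9377 and 9842 to 15875 CPM, 3 were lower in WT bleomycin than in control and 3 higher in CB1R KO than in WT bleomycin. All 4 markers of capillary endothelium were lower in WT bleomycin than in control, at 2777 to 3553, 1858 to 2186 and 2065 to 2523 CPM. The 5 adipocyte markers summed to 24.8 to 83.1, 6.93 to 26.5 and 15.0 to 55.2 CPM, and of the 4 tested 3 were lower in WT bleomycin than in control. Those of ciliated cells (4) summed to 167 to 213, 162 to 240 and 130 to 177 CPM, with 1 lower in WT bleomycin against control. In that comparison 2 of 4 smooth muscle markers were higher and 1 lower (439 to 565, 404 to 657 and 349 to 491 CPM). Of 5 alveolar macrophage markers 1 was lower (271 to 328, 175 to 264 and 209 to 268 CPM). Of 4 type I cell markers 2 were lower (2861 to 3182, 2080 to 2595 and 2142 to 3005.5 CPM). In CB1R KO against WT bleomycin, 1 of the 4 smooth muscle markers was lower, where 0.62% of all genes tested were lower. None of these markers was at 0 in every library, and their part in the results for the 10 genes was not tested.

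The genes whose log2 CPM followed each of the 10 most closely over the 13 libraries are given with Pearson's r and, after the group means were subtracted, with the r that remained. Cnr1 was followed by Tmem95 (0.934, then 0.891), Extl3 (0.894, 0.787) and Zbp1 (0.879, 0.715), of which Tmem95 had a mean of only 1.38 CPM. Cnr2 was followed by Cxcr5 (0.963, 0.920), Il16 (0.962, 0.967) and Rxrg (0.954, 0.939), and Gpr55 by Kif4 (0.980, 0.918), Cenpf (0.977, 0.906) and Nuf2 (0.976, 0.922). The r that remained was 0.715 or above for these receptors and 0.699 to 0.921 for the other genes given below. The 3 genes were picked by r over these same libraries, so the r that remained is not independent of that choice. Faah was followed by Hrct1, Tmem201 and Alpk3 (0.945 to 0.958, then 0.722 to 0.803), and Napepld by Cpq, Tmem82 and Ccdc43 (0.836 to 0.888, then 0.773 to 0.851). Daglb was followed by Svop, Cst3 and Vezt (0.944 to 0.966, then 0.774 to 0.853), Dagla by Resf1, Ttc17 and 8030462N17Rik (0.883 to 0.939, then 0.810 to 0.921), Abhd12 by Mal, Psrc1 and Mmp2 (0.980 to 0.985, then 0.80 to 0.85), Mgll by Carns1, Slc38a9 and Dcdc2a (0.896 to 0.913, then 0.835 to 0.904), and Abhd6 by Xpo1, Ros1 and Cfl2 (0.858 to 0.868, then 0.699 to 0.819). These values are the highest among all genes tested and share libraries and depth, and they are given as a description.

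Cnr1, Cnr2 and Faah lie on the same chromosome, and the genes around the targeted locus were counted separately. Of 21 tested genes within 5 Mb of Cnr1, 0 were called by edgeR in CB1R KO against WT bleomycin lungs and 4 had an unadjusted p under 0.05 (17% of all genes did). DESeq2 called 2 of the 21, where all its calls equalled 4.21% of the number of genes tested by edgeR. Those were Rragd, 0.901 Mb away (log2 fold change 0.37, SE 0.10, adjusted p = 0.0955 by edgeR and 0.0267 by DESeq2), and Bach2, 1.34 Mb away (0.49, SE 0.14, adjusted p = 0.107 and 0.0323). Within 10 Mb, 1 of 101 was called by edgeR, or 0.99% against the background of 0.979%, and it was Tpm2, 9.56 Mb away (log2 fold change -0.37, SE 0.07, adjusted p = 0.0371). DESeq2 called 3 of the 101, namely Rragd, Bach2 and Tpm2 (adjusted p = 0.00105 for Tpm2), beside the same 4.21%. These 3 genes are named after their values were seen. Distances were taken from GRCm38.p6, another build than that of the authors.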

How the data were processed

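Lower right lobes of mouse lungs were profiled in 13 libraries by poly(A)-selected RNA-seq. Per the labels and the methods, the authors quantified the reads with kallisto against Ensembl release 105 (GRCm39), and deposited, for 20270 genes, estimated counts and TPM added up by gene from protein-coding transcripts alone. The version of kallisto is not given in the sources used here. The tables held 1 column of per-sample values that the labels give no sample, which was not used. The 13 single-sample tables equalled the series tables and were not used. In all, 70.2% of the deposited estimated counts were not whole, and they were rounded for count tests.

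Counts were fitted with edgeR 4.0.16 (R 4.3.3): filterByExpr (15315 genes), TMM, 1 coefficient per group, no covariates, glmQLFit and glmQLFTest, and Benjamini-Hochberg adjustment over all genes tested at 0.05. The study's methods name DESeq2, which was run as an alternative (1.42.0), as was limma 3.58.1 on log2(TPM + 1) and log2(TPM + 0.1), which understates changes of low genes. Counts per TPM were tested with limma on the log2 ratio, centred on each library's median, over 13901 genes with at least 10 counts in every library. CPM used TMM-scaled library sizes, and likeness used log2 CPM with a prior count of 2. The procedures were tested on simulated data first. Other alternatives were filters, RLE and upper-quartile normalization, fits of 2 groups and the style of the sample titles (3 in capitals). Each library was also left out in turn, and the reads of CB1R KO replicate 11 were thinned to its group's depth. The titles in capitals were those of control replicate 26 and WT bleomycin replicates 4-B2 and 7. All CB1R KO titles were lower-case, so the style was not balanced over the groups, and the labels do not say what it marks. Each library was taken as 1 mouse, and the tests set group differences against the spread between libraries. The total count sets the precision of low genes.

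The 10 genes, the 50 other pathway genes and the marker lists were chosen with earlier results of these data known, and 1 listed marker is not reported here. Named in the text are the 10 genes, pathway genes called in CB1R KO against WT bleomycin and, in the other comparisons, the 4 with the lowest p per direction among those called, and the 3 genes most like each of the 10. Upstream sequences are from RefSeq (GRCm38.p6). Gene distances were matched by symbol for 15175 of 15315 genes.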

Additional observations from a re-analysis of the deposited data

Results flagged for a closer look

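Over the 30 sets of values formed by the 10 genes and 3 groups, 1 held a library far from the others by Dixon's criterion, which chance meets in about 1 of 20 sets. Cnr2 in control replicate 3 was 29.8 CPM, above a range of 17.7 to 18.6 CPM in the other 3 control libraries, and the gap was 0.930 of the range of the group. The B cell markers of that library summed to 385 CPM, against 157 to 205 CPM in the other control libraries, and their part in it was not tested.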

How the results depend on the processing

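Of 750 values of the 10 genes under alternative settings, 719 kept their direction and their side of the threshold, 11 passed it newly, 0 lost it and 20 changed sign. All sign changes were in CB1R KO against WT bleomycin, in genes with a log2 fold change near 0. Gpr55 (0.00) went to -0.0038 with upper-quartile normalization, -0.066 with the title style as a term, -0.071 in libraries with lower-case titles and -0.042 with CB1R KO replicate 11 thinned, and from -0.11 to 0.11 with libraries left out in turn. Daglb (0.03) went to -0.0067 with the title style as a term and -0.071 in lower-case titles (left out, -0.050 to 0.095). Mgll (-0.02) went to 0.028 and 0.029, and Abhd12 (-0.02) to 0.020 and 0.021, by limma on log2(TPM + 1) and log2(TPM + 0.1) (left out, -0.094 to 0.032 and -0.049 to 0.012). The genes called among the 10 numbered 6 to 7 in WT bleomycin against control, 0 in CB1R KO against WT bleomycin and 4 to 6 in CB1R KO bleomycin against control. In CB1R KO against WT bleomycin, other pathway genes called went from 0 to 2 by DESeq2 on all libraries and 2 on the 2 groups (0 to 1 with libraries left out), and all genes called from 150 to 644 by DESeq2 in both fits, 92 by limma on log2(TPM + 0.1), 88 by edgeR on the 2 groups, 41 with the title style as a term and 6 in lower-case titles, which hold fewer samples (1 to 653 with libraries left out, 1 without CB1R KO replicate 9 and 653 without replicate 10); other causes were not tested. No paired analysis was possible because the groups share no replicate numbers. Depth limits Cnr1 most, at 27 to 188 counts per library.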
